A study of Mus musculus with 13 samples.

Results

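The 9 genes described here encode the sensors that detect foreign or misplaced RNA in mammalian cells and the adaptors that pass the signal on: Ddx58, Ifih1, Dhx58, Mavs, Tlr3, Tlr7, Eif2ak2, Adar and Ticam1. They were taken by name from the 23236 gene rows of the deposited expression table, and each name matched 1 row. The table compares an RNA-seq library labelled siLinc-Yy1 with a library labelled siNC, with 1 library per condition, both from C2C12 myoblasts, a mouse muscle precursor line. By the usual reading of such names, the cells received a small interfering RNA against the long noncoding RNA Linc-Yy1 or a control one; the labels give no dose, time or transfection method. All C2C12 cells stem from a single line, and a small interfering RNA is itself a short RNA duplex, so neither library stands for cells without a duplex. The 11 other samples of the series, among them RNA-seq libraries of growing and differentiated cells (GM, DM) and all ChIP-seq libraries, were not analysed here.

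RNA sensing uses several compartments. In the cytosol, the helicases RIG-I (Ddx58) and MDA5 (Ifih1) bind duplex RNA and signal through the mitochondrial adaptor MAVS, while their relative LGP2 (Dhx58) lacks the signalling domain and tunes them. In endosomes, TLR3 reads duplex RNA through the adaptor TRIF (Ticam1), and TLR7 reads single-stranded RNA through MyD88. The kinase PKR (Eif2ak2) shuts down translation when it binds duplex RNA, and ADAR converts adenosine to inosine in duplexes, which keeps the cell's own RNA from triggering MDA5 and PKR. Many of these genes are themselves induced by interferon.

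Of the 9 genes, 8 were measurable in myoblasts and 7 of these read lower in siLinc-Yy1, against 54.6% of all measurable rows. The endosomal receptor Tlr3 had the largest difference and was the only member called in the authors' deposited table. That table called 0.229% of all measurable rows lower. The helicases and the duplex-binding enzymes were lower by 13 to 27%, whereas the adaptors Mavs and Ticam1 were at 1.11 and 0.967 times their siNC level. None of the 8 reached a 2-fold difference, and 0.178% of all measurable rows were at least 2-fold lower. With 1 library per condition no difference has a replicate check, and every value describes this pair of libraries.

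The comparison asks which transcripts differ when Linc-Yy1 is targeted. The target's own row was at 0.227 FPKM in siLinc-Yy1 and 0.360 FPKM in siNC, with a q-value of 0.878 in the authors' deposited table, so the label of the siLinc-Yy1 library could not be checked on it. Steps in the lowest values correspond to about 47.6 M fragments in siLinc-Yy1 and 66.1 M in siNC. Levels are in FPKM, that is fragments scaled to the length of the transcript and to the fragments mapped in the library, so that genes can be compared with each other. The order of the 9 genes was the same in both libraries. The kinase Eif2ak2 was highest, at 27.9 FPKM in siLinc-Yy1 and 32.1 FPKM in siNC, and 86.6% of all gene rows had a lower mean level. Ddx58 and Adar came next, then the adaptors Mavs and Ticam1, then Dhx58 and Ifih1. Tlr3 was scarce and Tlr7 was barely present. How far neighbours in this order differ beyond biological spread cannot be said without replicates.

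**Figure D1:**
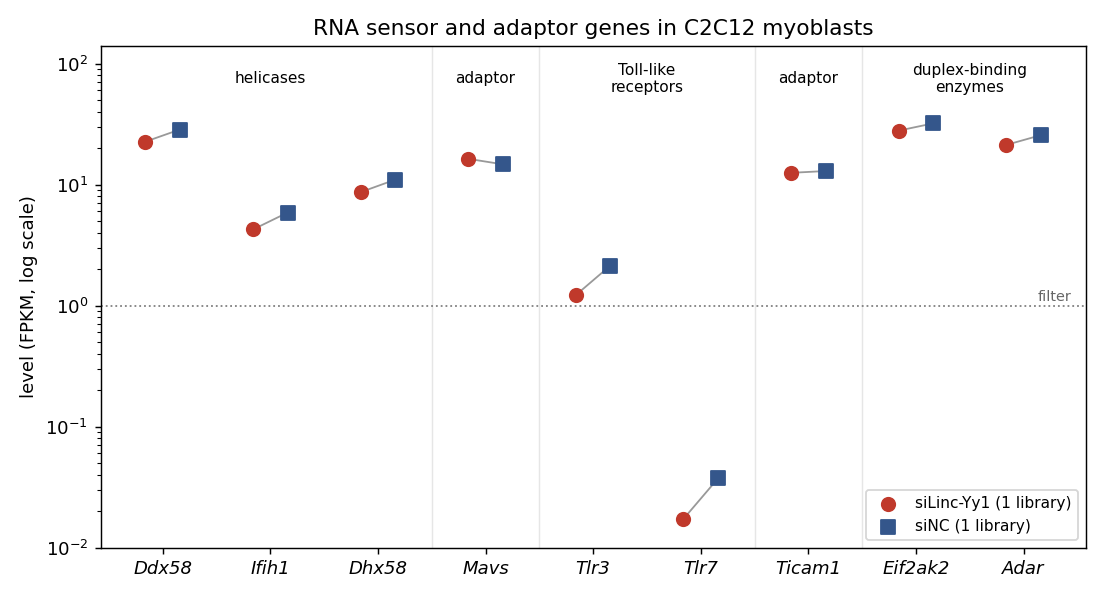
Levels of the 9 genes in FPKM on a log axis, with 1 point per library (circles siLinc-Yy1, squares siNC) and genes placed by role. The dotted line marks the filter of 1 FPKM. Levels run from 0.0173 FPKM (Tlr7 in siLinc-Yy1) to 32.1 FPKM (Eif2ak2 in siNC), and Mavs alone has its siLinc-Yy1 point above its siNC point.

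RefSeq promoter windows (build GRCm38.p6, 250 bases before to 50 after the gene start) were found for 7 of the 9 genes, 9 windows in all, since Adar has 3. Dhx58 and Tlr7 had none. The windows were searched on both strands for GAAA followed, after 2 bases of any kind, by a second GAAA, the letters of the interferon-stimulated response element bound by IRF proteins. Ddx58, Ifih1 and Eif2ak2 held 1 match each, all within 50 bases after the start, while Mavs, Ticam1, Tlr3 and Adar held none. The search required exactly 2 bases between the repeats, so related letters with another spacing were not counted. A window without a match may therefore still hold a similar element. These letters occur in 3.44% of all 32851 windows. Among the 34 genes of the interferon response list used below that have a window, 17 held a match, against 3.99% of all 27025 genes with a window. A relation between the motif and the differences was not tested. These 3 matches are shown as all that the members hold. Capitals mark the motif, and each line reads 5′ to 3′ on the gene's strand.
Ddx58: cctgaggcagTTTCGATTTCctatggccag
Ifih1: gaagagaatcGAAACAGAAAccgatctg
Eif2ak2: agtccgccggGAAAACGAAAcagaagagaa
They lie at chr4:40239804-40239833, chr2:62646206-62646233 and chr17:78882535-78882564, all on the minus strand. The Ddx58 match stands in the opposite orientation, and its first base is base 3 of the transcript, against base 33 for Ifih1 and base 19 for Eif2ak2.

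The shorter letters AANNGAAA, an IRF core contained in every match of the longer motif, are common and occur in 23.9% of windows. This motif was added after the sequences had been seen. Of the 7 genes with a window 5 held it, against 26.7% of all genes with a window and 20.5% of those past the filter. Ddx58, Ifih1 and Eif2ak2 had to be among them, since each held the longer motif, so this count is not separate from the earlier one. Only Tlr3 and Adar were added by the shorter letters. The core was present in Ddx58 and Ifih1 (2 matches each), in Eif2ak2, in Tlr3, 59 bases before the start, and in the third Adar window, at base 30. Mavs and Ticam1 held none of the 3 motifs searched, the third being the gamma-activated sequence TTCNNNGAA, which is in 8.3% of windows. That last motif was found in Eif2ak2 (base -178) and in the third Adar window (base 23). The Tlr3 and Adar stretches with the core in capitals, and the 250 bases before the Mavs start as an example of a window with none, are the following.
Tlr3: agtgaatggcTTTCACTTtgtttagaca
Adar: cttttcaaggAAACGAAAgtgaactctg
Mavs: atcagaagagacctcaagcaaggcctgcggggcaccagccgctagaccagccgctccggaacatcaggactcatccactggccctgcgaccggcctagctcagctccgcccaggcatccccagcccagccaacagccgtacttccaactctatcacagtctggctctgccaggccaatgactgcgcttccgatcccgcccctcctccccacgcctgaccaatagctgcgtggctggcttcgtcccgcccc
They lie at chr8:45410422-45410449 (minus strand), chr3:89730737-89730764 (plus strand) and chr2:131233813-131234062 (plus strand). A match describes letters and not a bound site, and a window without one says nothing about a factor acting elsewhere.

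**Figure D2:**
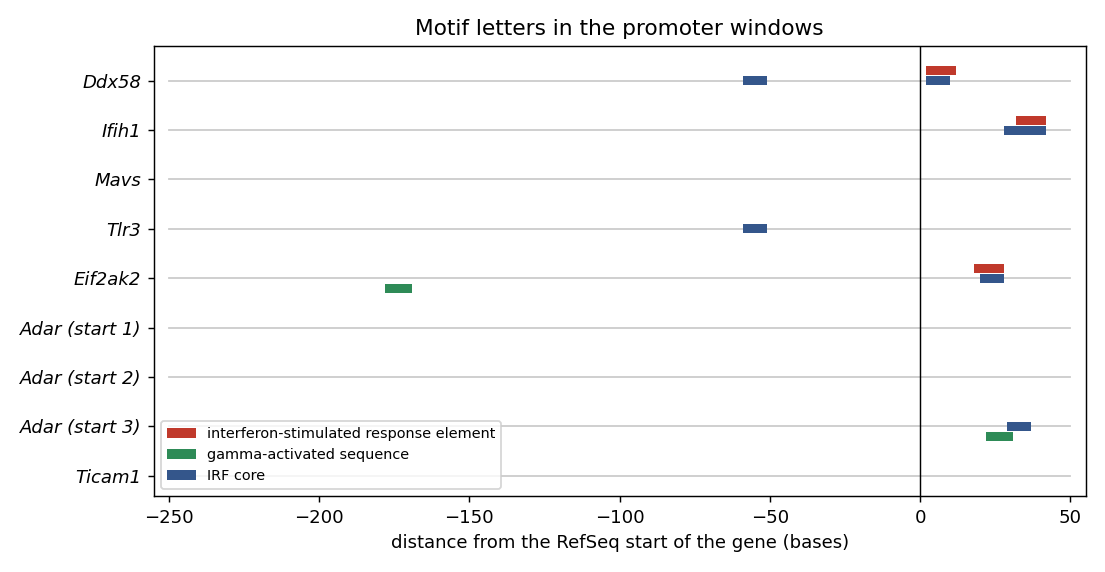
Positions of the motif letters in the 9 promoter windows, as distance in bases from the RefSeq gene start (vertical line). Red bars stand for the interferon-stimulated response element, blue bars for AANNGAAA and green bars for TTCNNNGAA; Mavs, Ticam1 and the first 2 Adar windows are empty.

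The helicases of the RIG-I family were lower in siLinc-Yy1. Differences are given as log2 of siLinc-Yy1 over siNC after 1 FPKM was added to each value. Ddx58, on chromosome 4 from 40150810 to 40186858 (mm9), measured 22.7 FPKM in siLinc-Yy1 and 28.5 FPKM in siNC, a ratio of 0.794 and a log2 difference of -0.32. Ifih1, on chromosome 2 from 62433850 to 62484312, measured 4.26 FPKM in siLinc-Yy1 and 5.87 FPKM in siNC, a ratio of 0.726 (-0.38). Dhx58, on chromosome 11 from 100556198 to 100565585, measured 8.67 FPKM in siLinc-Yy1 and 11.0 FPKM in siNC, a ratio of 0.789 (-0.31). Between the helicases, Ddx58 stood at 2.61 times Dhx58 in siLinc-Yy1 and 2.60 times in siNC. It stood at 5.32 times Ifih1 in siLinc-Yy1 and 4.86 times in siNC. In the authors' deposited table the q-values were 0.706 for Ddx58, 0.335 for Ifih1 and 0.676 for Dhx58, and none was called.

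Mavs, the adaptor through which RIG-I and MDA5 signal, was the member that read higher. It lies on chromosome 2 from 131059799 to 131073760 and measured 16.3 FPKM in siLinc-Yy1 and 14.7 FPKM in siNC, a log2 difference of 0.14, which became -0.16 when both libraries were scaled to the same FPKM total. That rescaling moved the median of all rows to -0.30, so Mavs stayed above the median gene. Ddx58 stood at 1.39 times Mavs in siLinc-Yy1 and 1.94 times in siNC. The q-value of Mavs in the authors' deposited table was 1.00.

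The Toll-like receptors of RNA were the scarcest members. Tlr3, on chromosome 8 from 46481019 to 46495893, measured 1.22 FPKM in siLinc-Yy1 and 2.14 FPKM in siNC, a ratio of 0.571. Its log2 difference was -0.50 with 1 FPKM added, -0.76 with 0.1 FPKM and -0.20 with 5 FPKM, since an added constant weighs on low values. In the authors' deposited table its log2 fold change was -0.81, with a p-value of 0.000374 and a q-value of 0.0274. Tlr7, on chromosome X from 163742863 to 163768460, measured 0.0173 FPKM in siLinc-Yy1 and 0.0373 FPKM in siNC. These levels are under the filter of 1 FPKM, the authors' deposited table gave the row the status NOTEST, and no difference is read from them.

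Ticam1, which links TLR3 to the interferon kinases, differed little. It lies on chromosome 17 from 56408885 to 56416190 and measured 12.5 FPKM in siLinc-Yy1 and 12.9 FPKM in siNC, a ratio of 0.967. Its log2 difference of -0.045 became 0.032 once the trend with level described below was subtracted. As Tlr3 was lower, Ticam1 stood at 10.2 times the Tlr3 level in siLinc-Yy1 and 6.04 times in siNC. The authors' deposited table gave Ticam1 a q-value of 1.00.

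The duplex-binding enzymes were abundant and slightly lower. Eif2ak2, on chromosome 17 from 79251890 to 79281912, had a ratio of 0.871 and a log2 difference of -0.19 at the levels given above, with a q-value of 0.969 in the authors' deposited table. Adar, on chromosome 3 from 89518944 to 89568554, measured 21.3 FPKM in siLinc-Yy1 and 25.6 FPKM in siNC, a ratio of 0.831 (-0.26). Its row carries the status FAIL, so the authors' deposited table holds a fold change of 0 and a p-value of 1 for it whatever the levels. The Adar row overlaps that of Chrnb2, a nicotinic receptor subunit at 0.161 FPKM in siLinc-Yy1 and 0.127 FPKM in siNC. The table has 1 row for Adar, so the constitutive and the interferon-induced transcripts cannot be told apart.

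The median row differed little between the libraries, but differences rose with level. The median difference of rows of like level was -0.11 near Ifih1 and 0.74 near Actb, whose mean was 1003 FPKM. Among the 11792 rows with a mean of at least 1 FPKM the median log2 difference was -0.021, and 54.6% of rows were below 0 and 45.4% above. Of the 8 measurable members 7 were below 0 and 1 above, with a median of -0.28. At least 2-fold lower were 0.178% of rows and at least 1.5-fold lower 0.517%, and with 1 FPKM added no member was among either. Tlr3, at a ratio of 0.571 without the added value, is past 1.5-fold lower on the FPKM alone. By the same sizes 1.39% and 3.28% of rows were higher, again without a member. The authors' deposited table called 0.229% of these rows lower, Tlr3 among them, and 1.22% higher, with no member.

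Each member was also set beside the rows nearest to it in level, because the median difference of a row varies with its level in these libraries. Each such group held the gene and the 150 rows on either side of it. In the group of Tlr3, 4 rows had a lower difference than Tlr3, or 1.33%, and in that of Ddx58 also 4. The number was 8 for Ifih1, 13 for Adar, 15 for Dhx58 and 20 for Eif2ak2, or 6.64%. For Ticam1 it was 183 (60.8%) and for Mavs 276 (91.7%), so both adaptors stood in the upper part of their group. Less the running median of these groups, 6 of the 8 members were below 0, against 49.7% of all rows, and they ran from -0.40 (Tlr3) and -0.33 (Ddx58) to 0.032 (Ticam1) and 0.20 (Mavs). The lowest 10.0% of rows past the filter held 5 of the 8 members: Tlr3, Ifih1, Ddx58, Dhx58 and Adar.

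**Figure D3:**
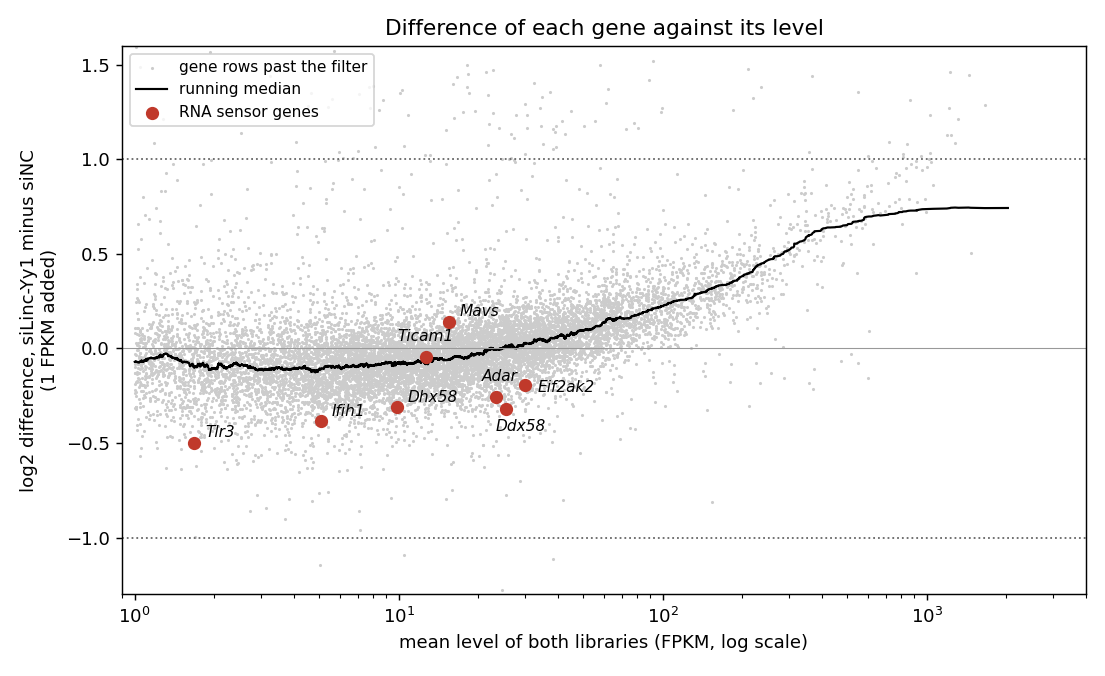
Log2 difference of siLinc-Yy1 minus siNC (1 FPKM added) against the mean level in FPKM (log axis) for all rows past the filter (grey), with their running median over rows ordered by level (black) and the 8 measurable members (red). Dotted lines mark a 2-fold difference, and 71 rows lie outside the axes. Mavs lies above the running median and Ticam1 close to it, while the other 6 members lie below it.

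What the authors' test could call at these levels bears on the calls. Among rows with status OK within 2-fold of the level of Ddx58, 8 of 4383 were called lower, and the smallest of these calls had a log2 fold change of 0.62 in size in the authors' deposited table. Near the level of Tlr3, 12 of 2008 rows were called lower and the smallest had 0.70. Near the level of Ifih1, whose own log2 fold change there was -0.46, the smallest lower call had 0.70. Differences of the size seen in the helicases and Eif2ak2 were thus called for no gene of like level in the authors' deposited table.

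Markers of myoblasts were high in both libraries. Myod1 measured 67.0 FPKM in siLinc-Yy1 and 62.5 FPKM in siNC. Des, the muscle intermediate filament, measured 487 FPKM in siLinc-Yy1 and 322 FPKM in siNC (0.60, but -0.039 less the trend with level). Markers of other cell types that express RNA sensors were also read. Of 8 macrophage and leukocyte markers 6 were under the filter, Ptprc at 0.0101 FPKM in siLinc-Yy1 and 0.0226 FPKM in siNC and Emr1 listed at 0 in siLinc-Yy1 and at 0.00480 FPKM in siNC. The exceptions were Cd14 at 9.16 FPKM in siLinc-Yy1 and 9.90 FPKM in siNC and Cd68 at 4.43 FPKM in siLinc-Yy1 and 4.48 FPKM in siNC, and the 8 markers summed to 14.3 FPKM in siLinc-Yy1 and 15.1 FPKM in siNC. The 3 endothelial markers summed to 0.343 FPKM in siLinc-Yy1 and 0.256 FPKM in siNC. Siglech and Ms4a1, markers of plasmacytoid dendritic and B cells, were at most 0.313 FPKM. Bst2 and Tcf4 of the same list, which other cell types also express, were not low. Bst2, which interferon induces, measured 229 FPKM in siLinc-Yy1 and 127 FPKM in siNC (0.85, and 0.51 less the trend). It was called higher in the authors' deposited table (q-value 0.00100). Tcf4 measured 16.5 FPKM in siLinc-Yy1 and 18.5 FPKM in siNC. The part of these markers in the results was not tested. In bulk RNA, fewer cells that express a gene and less of its RNA per cell cannot be told apart.

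The genes around the sensors were read through 8 lists, written with earlier results of these data known. Of all rows past the filter 54.6% were lower, and the authors called 0.229% lower and 1.22% higher. At such shares a short list without a call does not stand apart from all rows. The 26 cofactors and other nucleic acid sensors had a median of -0.065 among 22 measurable rows, with 13 lower, 9 higher and none called by the authors. Trim25, a ubiquitin ligase that activates RIG-I, was the lowest, at 14.7 FPKM in siLinc-Yy1 and 19.8 FPKM in siNC (-0.41). Rnf135 (Riplet), which also modifies RIG-I, measured 5.27 FPKM in siLinc-Yy1 and 6.57 FPKM in siNC (-0.27). Ywhae, a 14-3-3 protein that carries RIG-I to the mitochondria, measured 403 FPKM in siLinc-Yy1 and 247 FPKM in siNC (0.70, and 0.14 less the trend with level). Zbp1, a sensor of Z-form nucleic acid, read higher, at 27.3 FPKM in siLinc-Yy1 and 21.5 FPKM in siNC (0.33).

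The signalling machinery downstream of the sensors lay close to the median gene. Of 36 measurable adaptors, kinases and transcription factors 23 were lower and 13 higher, against 54.6% of all rows lower. Their median was -0.035 and their range -0.24 to 0.33, and the authors' deposited table called none. Tbk1, the kinase that activates IRF3, measured 18.5 FPKM in siLinc-Yy1 and 17.8 FPKM in siNC. Irf3 itself measured 16.3 FPKM in siLinc-Yy1 and 17.5 FPKM in siNC. Myd88, the TLR7 adaptor, measured 17.5 FPKM in siLinc-Yy1 and 19.2 FPKM in siNC, and Unc93b1, which brings TLR3 and TLR7 to endosomes, 5.17 FPKM in siLinc-Yy1 and 4.99 FPKM in siNC. The members farthest from 0 were Hsp90b1, a Toll-like receptor chaperone (0.33, but -0.14 less the trend), Tab3 (-0.24), Ripk3 (-0.23) and Ripk1 (-0.22), which serve kinase and cell death signalling.

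The list of negative regulators of RNA sensing also holds genes with other roles, Trex1 and Gpx4 among them. It had a median of -0.044, with 16 of 28 lower and 12 higher, against 54.6% of all rows lower. Usp18, which removes Isg15 and damps the interferon receptor, measured 15.0 FPKM in siLinc-Yy1 and 23.2 FPKM in siNC (-0.59), and the authors' deposited table called it lower (q-value 0.0478). Trex1, a DNA exonuclease, measured 17.1 FPKM in siLinc-Yy1 and 24.8 FPKM in siNC (-0.51, q-value 0.199 in the authors' deposited table). The glutathione peroxidase Gpx4 (0.65) and Pcbp2, which directs MAVS to degradation (0.54), read higher, and less the trend with level they stood at 0.060 and 0.24.

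PKR partners, the eIF2 subunits and the other eIF2 kinases were divided, with 10 of 21 lower and 11 higher, against 54.6% of all rows lower. Their median was 0.027, which turned to -0.033 less the trend. Prkra (PACT), a protein activator of PKR, measured 12.2 FPKM in siLinc-Yy1 and 14.9 FPKM in siNC (-0.27). Eif2ak3 (PERK), the eIF2 kinase of the endoplasmic reticulum, measured 6.93 FPKM in siLinc-Yy1 and 9.25 FPKM in siNC (-0.37). Eif2s1, the subunit that PKR phosphorylates, measured 36.1 FPKM in siLinc-Yy1 and 37.3 FPKM in siNC. Eif2s2, the beta subunit, measured 126 FPKM in siLinc-Yy1 and 79.2 FPKM in siNC (0.66, and 0.43 less the trend). Eif2s3x measured 104 FPKM in siLinc-Yy1 and 86.3 FPKM in siNC (0.27, but 0.050 less the trend). No gene of this list was called in the authors' deposited table.

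The relatives of the members did not share their differences throughout. Adarb1 (ADAR2), the editing enzyme that acts mainly on neuronal transcripts, measured 6.17 FPKM in siLinc-Yy1 and 7.81 FPKM in siNC (-0.30). The tRNA deaminases Adat1 and Adat2 stood at -0.068 and 0.072. Of 10 other Toll-like receptors 3 were measurable, and these recognise bacterial products: Tlr6 at 1.26 FPKM in siLinc-Yy1 and 1.81 FPKM in siNC (-0.31), Tlr4 at 2.98 FPKM in siLinc-Yy1 and 3.18 FPKM in siNC, and Tlr2 at 2.20 FPKM in siLinc-Yy1 and 2.25 FPKM in siNC. Less the trend with level, Tlr4 and Tlr2 stood at 0.047 and 0.082. The other endosomal nucleic acid receptors, Tlr8, Tlr9 and Tlr13, were under the filter.

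**Figure D4:**
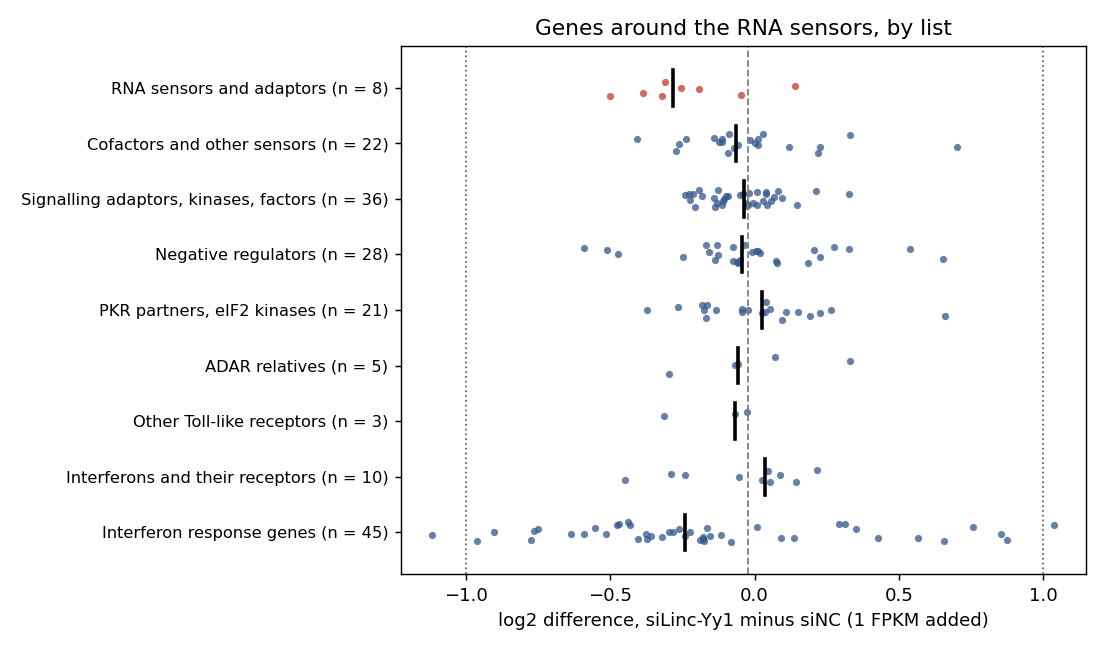
Log2 difference of siLinc-Yy1 minus siNC (1 FPKM added) for each measurable gene of the RNA sensors (red) and of the 8 lists around them (blue), with black bars at list medians, a dashed line at the median of all rows and dotted lines at a 2-fold difference. The medians of the sensors (-0.28) and of the interferon response genes (-0.24) lie below those of the other lists.

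The beta and alpha interferons that RNA sensing induces were near the floor of the assay in both libraries. Ifnb1 stood at 0.0313 FPKM in siLinc-Yy1 and 0.0669 FPKM in siNC. As the gene has no intron, these levels correspond to about 1.0 fragment in siLinc-Yy1 and 3.0 fragments in siNC. Of 11 Ifna rows, whose near-identical sequences share reads, 4 were listed at 0 in siLinc-Yy1 and 3 in siNC, and none exceeded 0.0890 FPKM. A difference in these transcripts was not detectable at this depth. Among the other interferon rows the highest was Ifnz, at 0.646 FPKM in siLinc-Yy1 and 0.744 FPKM in siNC. The interferon receptor genes were expressed, with Ifnar1 at 15.8 FPKM in siLinc-Yy1 and 15.2 FPKM in siNC and Ifnar2 at 33.5 FPKM in siLinc-Yy1 and 28.7 FPKM in siNC (0.22).

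Stat2 and Irf9, which help carry the interferon signal to promoters, read lower in siLinc-Yy1 as well. Stat2 measured 27.7 FPKM in siLinc-Yy1 and 34.1 FPKM in siNC (-0.29), and Irf9 26.1 FPKM in siLinc-Yy1 and 31.0 FPKM in siNC (-0.24). Neither factor was called in the authors' deposited table. The 45 interferon response genes had a median of -0.24, with 32 lower and 13 higher, against 54.6% of all rows lower, and a direction already known when the list was written. The authors' deposited table called 7 of them lower and 4 higher, against 0.229% and 1.22% of all rows. Ifit3, a partner of the RNA-binding protein IFIT1, measured 23.8 FPKM in siLinc-Yy1 and 52.8 FPKM in siNC (-1.12). Mx2 measured 4.53 FPKM in siLinc-Yy1 and 9.76 FPKM in siNC (-0.96), and the GTPase Ifi47 2.29 FPKM in siLinc-Yy1 and 5.15 FPKM in siNC (-0.90). B2m, the beta chain that stabilises MHC class I at the cell surface, was at 481 FPKM in siLinc-Yy1 and 234 FPKM in siNC (1.04, and 0.44 less the trend). The range of this list, from -1.12 to 1.04, was wider than that of the sensors, from -0.50 to 0.14.

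**Figure D5:**
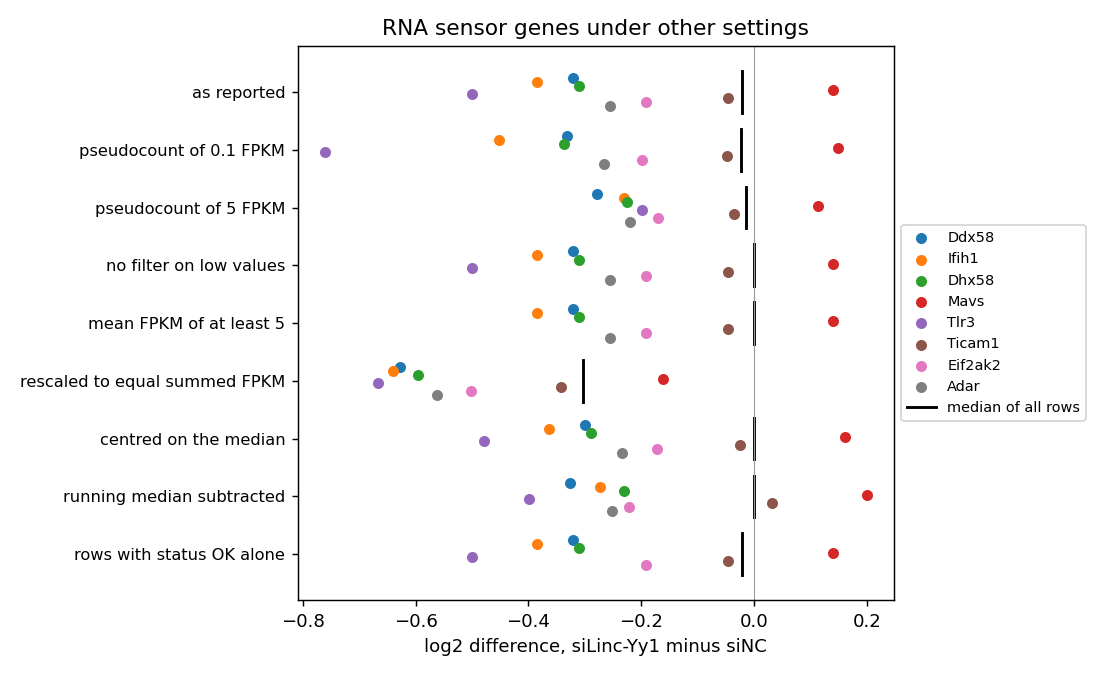
Log2 difference of siLinc-Yy1 minus siNC for the 8 measurable members under each setting, with a black bar at the median of all rows under that setting. Apart from Ticam1 and Mavs, each member shown stays below that median in all settings, although Tlr3 moves between -0.76 and -0.20 with the value added to FPKM.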

How the data were processed

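Polyadenylated RNA of C2C12 cells was sequenced, per the labels. The authors deposited FPKM, with a single value for each gene in each library, in 1 table present as 2 identical copies; its first and second value columns were read as siNC and siLinc-Yy1, the header's order. The p-values and q-values are those of the authors' own test, per the file headers, and the deposited fold change and test score columns were read only from their table. Build mm9, Cuffdiff 2.0.4, Cufflinks 2.1.1 and TopHat2 2.0.4 are named in the submitters' processing notes. Not given in the sources used here were the annotation, the scaling between libraries and the use of strand.

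With Python 3.11.15, numpy 2.4.6 and pandas 2.3.3, log2 of (FPKM + 1) in siLinc-Yy1 over siNC was computed and called at a fold of 2 among rows with a mean of at least 1 FPKM. With 1 library per condition no p-value of its own was computed. The running median spans each row and the 150 rows on either side in mean FPKM. The size rule and the running median were tested on simulated data. The changes planted for the size rule were larger than any difference of the members, so that test does not bear on differences of their size. Depth was read from single-exon receptor rows, where FPKM steps by 1 fragment. Allowing for an effective length, this gave about 47.6 M fragments for siLinc-Yy1 and 66.1 M for siNC. Within 0.02 fragments 46.8% and 54.7% of low rows were whole, so no count test was run. Counting intervals for the members, planned from coding lengths, were not computed, since transcript lengths were not used here.

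The members and lists were chosen with earlier results of these data known. Named genes were the 9 members, up to 4 genes per list with the largest absolute difference, and Irf3, Tbk1, Myd88, Unc93b1, Ifnb1, Prkra and Eif2s1. A few named or listed genes are not reported here. Ifnar1, other low genes and markers were named after their values were seen, as was the group of lowest rows, and AANNGAAA was searched after the sequences had been seen. Of the listed genes, Mb21d1 and Ifna15 were found under other RefSeq names. Promoter windows came from RefSeq (GRCm38.p6) by symbol, and no coordinate was carried between builds.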

Additional observations from a re-analysis of the deposited data

How the results depend on the processing

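No paired analysis was possible because each condition has 1 library. Of the 8 measurable members 6 stayed lower under all alternatives tried: pseudocounts of 0.1 and 5 FPKM, no filter, a filter of 5 FPKM, rescaling to equal summed FPKM, centring, subtraction of the running median and rows with status OK alone. The last of these drops Adar, and the filter of 5 FPKM drops Tlr3. Most alternatives could not have turned a lower member. A pseudocount keeps the sign of a difference, a change of filter or status only keeps or drops rows, and rescaling moved rows down. Only centring and subtraction of the running median could have turned such a member. Rescaling, which puts 91.5% of all rows below 0 and their median at -0.30, turned Mavs to -0.16, leaving 0 members higher, and subtraction of the running median turned Ticam1 to 0.032, giving 2 higher. The median of the sensors less that of all rows ran from -0.29 to -0.19. The authors' deposited calls gave 1 member lower, where the 2-fold rule gave 0.

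Over the 8 other lists, 1 gene was at least 2-fold lower and 1 higher, against 0.178% and 1.39% of all rows. A fold of 1.5 gave 8 lower and 8 higher, against 0.517% and 3.28% of all rows. The authors' deposited calls gave 7 and 4, against 0.229% and 1.22% of all rows. At 2-fold, a pseudocount of 0.1 FPKM gave 3 lower, rescaling 6 lower and 0 higher, and the running median 0 higher. Genes lower by any size numbered 103 and genes higher 65, against 54.6% and 45.4% of all rows. After this rescaling of all rows 18 were higher. Medians that changed sign were those of PKR partners (-0.30 rescaled, -0.033 less the trend), ADAR relatives (0.016 without the filter, 0.0082 at 5 FPKM, 0.046 less the trend), other Toll-like receptors (0.047 less the trend) and interferons and receptors (-0.0075 without the filter, -0.27 rescaled). The causes were not tested. Depth limits Tlr7 and the interferons, and without replicates no difference can be set against biological spread.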

Other observations

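Sensors of DNA and the enzymes that clear nucleic acids were also expressed in these myoblasts. The DNA sensor cGAS, under the row name E330016A19Rik, measured 3.17 FPKM in siLinc-Yy1 and 4.00 FPKM in siNC (log2 difference -0.26), and its adaptor STING (Tmem173) 15.2 FPKM in siLinc-Yy1 and 16.9 FPKM in siNC (-0.14). Aim2, the inflammasome DNA sensor, measured 6.09 FPKM in siLinc-Yy1 and 6.72 FPKM in siNC (-0.12). Samhd1, which degrades deoxynucleotides, stood at 29.9 FPKM in siLinc-Yy1 and 31.2 FPKM in siNC. These genes and those below come from the lists above and were picked after their values were seen.

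The oligoadenylate synthetases, which bind duplex RNA, did not all read in the direction of the helicases. Oas3 measured 9.57 FPKM in siLinc-Yy1 and 6.13 FPKM in siNC (0.57), and the authors' deposited table called it higher, with a q-value of 0.0323. Oas1a (0.35), Oas1g (0.43) and Oas2 (0.29) also read higher, whereas Oas1b (-0.36), Oasl1 (-0.40) and Oasl2 (-0.18) read lower. Oas1a and Oas1g are near-identical neighbours whose reads the authors' estimate had to divide. The RNA helicases Dhx9 (53.7 FPKM in both libraries), Ddx3x (55.2 FPKM in siLinc-Yy1 and 55.9 FPKM in siNC) and Dhx15 (59.4 FPKM in siLinc-Yy1 and 61.9 FPKM in siNC) were more abundant than any of the 9 sensor genes, as was the factor Irf7 (38.9 FPKM in siLinc-Yy1 and 35.1 FPKM in siNC).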
